A study of Sus scrofa with 18 samples.

Results

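PLET1, DPPA5, PAG6, PPAG3, GATA3 and PLAC1, 6 genes known from the trophoblast and the early conceptus, were followed through gestation in the endometrium of Yorkshire and Meishan gilts. The genes were selected on their rise between gestational day (GD) 15 and GD26 on these same arrays, so the values of that step are given as a description, with no test. By the gene symbols of the platform, 13 of the 24123 probe sets of the array belong to them, with 2 for PLET1, 1 for DPPA5, 3 for PAG6, 1 for PPAG3, 4 for GATA3 and 2 for PLAC1. A probe set is a group of short oligonucleotides that together measure 1 transcript, and its value is a log2 intensity. The groups were Yorkshire gilts at GD15, GD26 and GD50 and Meishan gilts at the same days, all pregnant by boars of their own breed, with 3 arrays per group on the Affymetrix porcine GeneChip. Each array held a pool of RNA from 1 attachment site of each of the same 2 gilts. The 3 arrays of a group thus share their animals, and all p-values below measure the spread between attachment sites and not between animals. Conceptuses were recovered by flushing at GD15 and were present in the uterus at hysterectomy at GD26 and GD50. How fetal membranes were parted from the endometrium is not given in the sources used here.

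The trophoblast is the outer cell layer of the conceptus and later lines the placenta. In the pig it attaches to the uterine epithelium without invading it, so maternal and fetal tissue lie against each other in folds. Pregnancy-associated glycoproteins are a large family related to aspartic proteinases such as pepsin, which trophoblast cells of pigs and ruminants secrete. GATA3 is a transcription factor that, in the mouse, takes part in setting the trophoblast apart from the inner cells of the embryo. PLET1 is a membrane protein of the placenta, PLAC1 is a placental protein needed for normal growth of the placenta in the mouse, and DPPA5 is an RNA-binding protein known from pluripotent cells of the mouse embryo. In bulk tissue, fewer cells of a type and less RNA per cell cannot be told apart.

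Of the 13 probe sets, 10 had an intensity above 100 (a log2 value of 6.64) on at least 6 arrays and entered the tests, which ran over 9320 probe sets. The 3 that did not were the dimmer probe set of PLET1 and the 2 dimmest of the 4 of GATA3. Within a gene, probe sets are named below by their brightness, as the mean over the 18 arrays, and the plots list them in that order. A probe set is said to rise, fall or differ where the Benjamini-Hochberg adjusted p of limma over these 9320 was under 0.05. The 6 arrays of Yorkshire endometrium at the later days had lower medians than the other 12. These medians over the probe sets past the filter were 7.78 to 8.13, against 8.31 to 8.40 on the others, and their hybridization controls averaged 11.4 to 13.5, against 9.68 to 11.1. At these days breed and array scaling therefore move together, and breed differences are also given under other scalings. The tissue label was checked against its markers, each read on its brightest annotated probe set. Of 14 genes of the endometrial epithelium, 9 were above 100 on all 18 arrays, while PGR and ESR1, the progesterone and estrogen receptors, were under 100 on all 18. The paper, with its own probe annotation, counts ESR1 among the genes with high expression at GD15 in both breeds. The low values here can therefore not be read as absence of the receptors. Of 7 stromal genes, 4 were above 100 on all arrays.

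At GD15 the 6 genes were near the bottom of the scale in both breeds. All 39 values of the 13 probe sets in Yorkshire endometrium lay between 2.18 and 3.45, and all 39 in Meishan endometrium lay between 2.18 and 3.58, far under the intensity of 100. From GD26 on, the brightest probe sets of 3 of the genes reached log2 values between 11.8 and 15.1. For the probe sets past the filter, every GD26 array was above every GD15 array of its breed, which is the pattern the genes were selected on. Over all probe sets, 20.3% rose and 44.9% fell at this step in Yorkshire, and 23.8% rose and 27.1% fell in Meishan, which says nothing further about genes chosen by it. Of all calls at this step in Yorkshire, 31.1% were rises as deposited, against 43.6% after quantile normalization, 48.6% after median centring and 52.2% after cyclic loess.

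**Figure D1:**
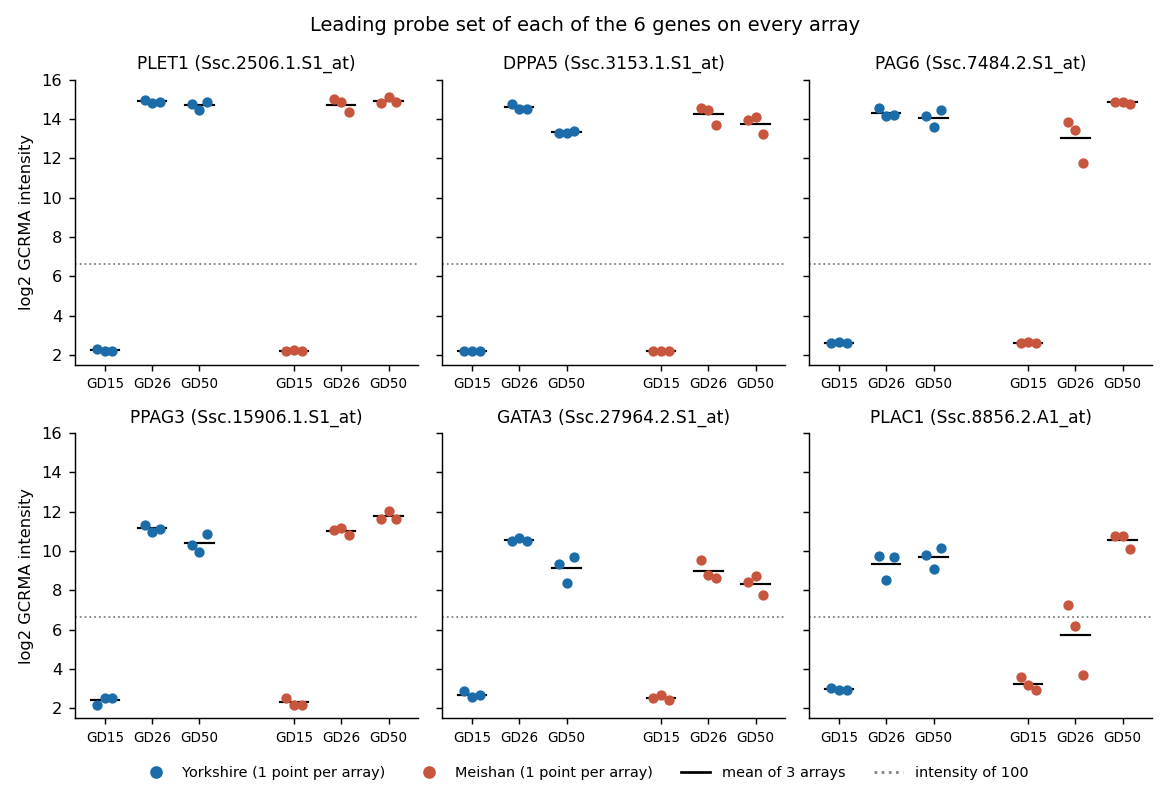
Log2 GCRMA intensity of the brightest probe set of each gene on every array, by breed and gestational day, with the mean of 3 arrays as a bar and an intensity of 100 as a dotted line. All GD15 points lie at or under 3.58. At GD26 all Meishan arrays lie below all Yorkshire ones for PAG6, GATA3 and PLAC1, and the Meishan arrays of PLAC1 spread from 3.72 to 7.26.

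PLET1, on its brighter probe set, was near the top of the scale on every array after GD15. In Yorkshire endometrium it measured 2.32, 2.19 and 2.19 at GD15, 14.98, 14.83 and 14.89 at GD26, and 14.75, 14.47 and 14.86 at GD50. In Meishan endometrium it measured 2.19, 2.23 and 2.19 at GD15, 15.00, 14.85 and 14.37 at GD26, and 14.80, 15.14 and 14.85 at GD50. The arrays of the 4 later groups all overlapped. Taken against an intensity of 100 in place of the dim GD15 arrays, PLET1 at GD50 was at least 265-fold above GD15 in Yorkshire and at least 312-fold above it in Meishan. The dimmer PLET1 probe set reached 4.24 to 6.93 on the later arrays, and was above 100 on 2 Yorkshire arrays of GD26.

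DPPA5 followed the same course with a partial decline. In Yorkshire endometrium it measured 2.18 on each of the GD15 arrays, 14.78, 14.49 and 14.52 at GD26, and 13.27, 13.29 and 13.42 at GD50. In Meishan endometrium it measured 2.20, 2.18 and 2.18 at GD15, 14.55, 14.46 and 13.69 at GD26, and 13.96, 14.09 and 13.24 at GD50. The order of the later groups was Yorkshire GD26, Meishan GD26, Meishan GD50 and Yorkshire GD50, and each overlapped the next, while the 2 Yorkshire groups did not overlap. At GD50 it was still at least 103-fold above GD15 in Yorkshire and at least 139-fold above it in Meishan.

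Of the pregnancy-associated glycoproteins, PPAG3 and the brightest probe set of PAG6 were highest in Meishan endometrium at GD50. On its brightest probe set PAG6 measured 14.58, 14.14 and 14.23 at GD26 and 14.15, 13.61 and 14.45 at GD50 in Yorkshire. In Meishan it measured 13.87, 13.46 and 11.79 at GD26 and 14.88, 14.88 and 14.79 at GD50. All Meishan GD50 arrays were above all arrays of the other groups, and the third Meishan GD26 array was far below the rest.

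The single PPAG3 probe set was likewise highest in Meishan at GD50. It measured 11.34, 10.98 and 11.14 at GD26 and 10.32, 9.97 and 10.87 at GD50 in Yorkshire. In Meishan it measured 11.05, 11.17 and 10.83 at GD26 and 11.62, 12.03 and 11.64 at GD50. The Meishan GD50 arrays again stood above all others, and the Yorkshire GD26, Meishan GD26 and Yorkshire GD50 arrays followed in this order, each group overlapping the next. No other probe set carries the symbol of a pregnancy-associated glycoprotein in the platform annotation used here. Members of the family are alike in sequence, so a probe set may also bind RNA of relatives, and both genes' values are uncertain in that respect.

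On its brightest probe set, GATA3 was highest in Yorkshire endometrium at GD26. It measured 10.49, 10.65 and 10.53 at GD26 and 9.32, 8.36 and 9.68 at GD50 in Yorkshire. In Meishan it measured 9.53, 8.76 and 8.63 at GD26 and 8.42, 8.73 and 7.78 at GD50. The Yorkshire GD26 arrays were above all others, and the remaining groups overlapped from one to the next. On the second probe set, at 9.44, 9.19 and 9.28 in Yorkshire against 9.57, 8.85 and 8.39 in Meishan, the breeds overlapped at GD26. The dimmest GATA3 probe set stayed under 100 throughout, yet measured 5.33, 5.02 and 5.37 at GD26 and 3.05, 3.39 and 4.52 at GD50 in Yorkshire. In Meishan it was at 2.18, 2.18 and 2.53 at GD26 and at 2.18 on each GD50 array, which is the lowest value of the whole data set. The remaining GATA3 probe set reached 3.67 to 6.55 after GD15 and was under 100 on all arrays as well.

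PLAC1 was the only gene of the 6 with arrays after GD15 on which its brightest probe set stayed under 100. In Yorkshire endometrium it measured 3.01, 2.94 and 2.94 at GD15, 9.76, 8.53 and 9.68 at GD26, and 9.79, 9.09 and 10.14 at GD50. In Meishan endometrium it measured 3.58, 3.17 and 2.94 at GD15, 7.26, 6.18 and 3.72 at GD26, and 10.76, 10.74 and 10.13 at GD50. All Meishan GD26 arrays were under all Yorkshire arrays of GD26 and GD50, and only 1 of them was above 100. The dimmer probe set gave the same picture at GD26, with 9.76, 8.18 and 9.59 in Yorkshire against 6.55, 6.44 and 3.27 in Meishan. At GD50 it measured 9.25, 8.52 and 9.47 in Yorkshire against 10.45, 10.65 and 10.24 in Meishan.

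Between GD26 and GD50, the calls of the set were not the same in the 2 breeds. Whether a change itself differed between the breeds was tested separately and is given further below. In Yorkshire, 4 of the 10 tested probe sets fell and none rose, where 7.85% of all probe sets fell and 5.72% rose. Those that fell were DPPA5, 1 probe set of PAG6 and both tested probe sets of GATA3. In Meishan, 4 of the 10 rose and 1 fell, where 8.2% of all probe sets rose and 10.2% fell. Those that rose were both probe sets of PLAC1, the brightest of PAG6 and the probe set of PPAG3. These comparisons use the GD26 arrays that also entered the choice of the genes, so they are not fully independent of it.

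PLAC1 changed most. In Meishan it was higher at GD50 than at GD26 on the brighter probe set (log2 change 4.82 ± 0.71, standard error, adjusted p = 0.00166 by limma, 3 arrays against 3). Since 2 of the 3 GD26 arrays were under 100, this size is not exact and no fold is given for it. On the other probe set it was at least 13.9-fold higher (5.02 ± 0.72, adjusted p = 0.00142). In Yorkshire the 2 probe sets changed by 0.35 ± 0.36 and -0.10 ± 0.41 (adjusted p = 0.554 and 0.896). Their 95% confidence intervals ran from -0.45 to 1.15 and from -1.02 to 0.82. Without the third Meishan GD26 array, which was the dimmest for PLAC1, the Meishan rises were 3.82 and 3.95, and without the first that of the brighter probe set was 5.60.

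The other Meishan rises were smaller. The brightest PAG6 probe set was 3.50-fold higher at GD50 than at GD26 (1.81 ± 0.42, adjusted p = 0.0172), with all 3 GD50 arrays above all 3 GD26 arrays. PPAG3 was 1.68-fold higher (0.75 ± 0.17, adjusted p = 0.0150), likewise without overlap. Both calls rest on few arrays. The PAG6 call was lost without the first or the second Meishan GD50 array (adjusted p = 0.0546 and 0.0516), and its rise was 1.18 without the third Meishan GD26 array. The PPAG3 call was lost without the second Meishan GD50 array or the third Meishan GD26 array (adjusted p = 0.0568 and 0.0597). With the filter applied after the fit the PAG6 call was lost as well (adjusted p = 0.0527).

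In Yorkshire, DPPA5 was 2.42-fold lower at GD50 than at GD26 (-1.27 ± 0.15, adjusted p = 0.000746), with no overlap of the arrays. GATA3 was 2.71-fold lower on the brighter probe set (-1.44 ± 0.30, adjusted p = 0.0132) and 2.48-fold lower on the other (-1.31 ± 0.36, adjusted p = 0.0404). The call of the second GATA3 probe set was lost without any 1 of the 3 GD15 or 3 GD26 Yorkshire arrays (adjusted p up to 0.0827) and with the filter after the fit (adjusted p = 0.0769). That of the brightest held in all 9 fits that left out 1 array but was lost with no filter (adjusted p = 0.0604), and that of DPPA5 held in all of these. PPAG3 changed by -0.76 ± 0.24 in Yorkshire, without overlap of the arrays, and did not pass (adjusted p = 0.0662). It passed in 1 fit over both breeds (adjusted p = 0.0168) and with intensities under 50 set to 50 (adjusted p = 0.0461). It also passed without the third Yorkshire GD50 array (adjusted p = 0.0207). In Meishan, DPPA5 changed by -0.47 ± 0.27 and GATA3 by -0.67 ± 0.28 and -0.15 ± 0.35 (adjusted p = 0.261, 0.132 and 0.818). PLET1 changed by -0.21 ± 0.16 in Yorkshire and 0.19 ± 0.18 in Meishan (adjusted p = 0.435 and 0.506), with 95% confidence intervals from -0.57 to 0.16 and from -0.20 to 0.59.

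**Figure D2:**
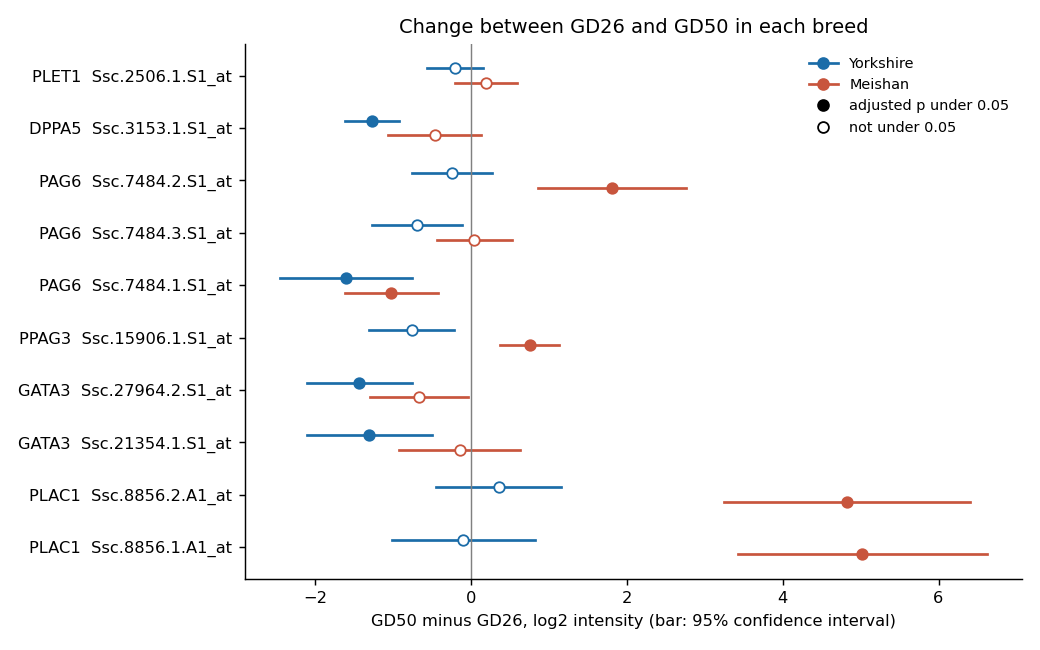
GD50 minus GD26 log2 intensity of the 10 tested probe sets in Yorkshire and Meishan, with 95% confidence intervals, filled where the adjusted p was under 0.05. The Meishan changes of PLAC1, at 4.82 and 5.02, lie apart from all others, and the Yorkshire change was below the Meishan change for each of the 10 probe sets.

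The difference between the breeds in this change was tested in 1 fit over the 6 groups, as the Yorkshire change minus the Meishan change. This test also uses the GD26 arrays that entered the choice of the genes. The difference was below 0 for all 10 probe sets, where the median over all probe sets was -0.03. The 10 are not separate results, since some measure the same gene and all share their arrays. The test was passed by 4, where 2.32% of all probe sets passed in that direction and 2.05% in the other. The difference was -4.47 ± 0.86 and -5.12 ± 0.90 for PLAC1 (adjusted p = 0.00813 and 0.00439), -1.51 ± 0.30 for PPAG3 (adjusted p = 0.00917) and -2.05 ± 0.52 for the brightest PAG6 probe set (adjusted p = 0.0332). Quantile normalization, median centring and cyclic loess ended none of these 4 calls. The PAG6 call was lost without any 1 of the Meishan GD50 arrays, without the first or the third Yorkshire GD26 array, and without the second Yorkshire GD50 array (adjusted p up to 0.0780). It was also lost when the filter followed the fit (adjusted p = 0.0526) or was left out (adjusted p = 0.0812). The calls of PLAC1 and PPAG3 held in all 18 fits that left out 1 array. Without the third Meishan GD26 array the differences were -3.47 and -4.05 for PLAC1 and -1.43 for PAG6, and without the first that of the brighter PLAC1 probe set was -5.24. For PLET1 the difference was -0.40 ± 0.23 and for DPPA5 -0.80 ± 0.32 (adjusted p = 0.360 and 0.168). Their intervals ran from -0.89 to 0.09 and from -1.47 to -0.13, and DPPA5 passed only without the third Meishan GD50 array (adjusted p = 0.0498). For the tested GATA3 probe sets it was -0.77 ± 0.43 and -1.16 ± 0.53 (adjusted p = 0.344 and 0.237). For the third PAG6 probe set it was -0.59 ± 0.49 (adjusted p = 0.546). The probe sets that fell in Yorkshire thus did not pass this test with all arrays.

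The breeds were compared day by day in the same fit. At GD15, none of the 10 probe sets differed, at an unadjusted p under 0.05 neither, where 4.92% of all probe sets were higher in Yorkshire and 4.87% lower. All were under 100 on all GD15 arrays, so only signal near the bottom of the scale was compared. At GD26, 4 of the 10 were higher in Yorkshire and none lower, where 10.7% of all probe sets were higher and 42.5% lower. The arrays of GD15 and GD26 also entered the choice of the genes, so the comparisons at these days are not fully independent of it. At GD50, 1 was higher and 1 lower in Yorkshire, where 10.9% of all probe sets were higher and 45.6% lower. The median difference of all tested probe sets was -0.42 at GD26 and -0.46 at GD50. Of all calls at GD26, 20.2% were higher in Yorkshire as deposited, against 38.2% after quantile normalization, 46.2% after median centring and 53.5% after cyclic loess, and at GD50 the shares were 19.2%, 38.8%, 48.1% and 51.5%.

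At GD26, PLAC1 was higher in Yorkshire than in Meishan on the brighter probe set, by a size that is likewise not exact (3.60 ± 0.61, adjusted p = 0.000195) and at least 5.79-fold higher on the other (3.76 ± 0.64, adjusted p = 0.000196), with no overlap on either. Without the third Meishan GD26 array the differences were 2.60 and 2.68, and without the first that of the brighter probe set was 4.38. The brightest GATA3 probe set was 2.99-fold higher (1.58 ± 0.31, adjusted p = 0.000574) and the brightest of PAG6 2.42-fold higher (1.28 ± 0.37, adjusted p = 0.00856), each with all 3 Yorkshire arrays above all 3 Meishan arrays. The PAG6 difference was 0.65 without the third Meishan GD26 array. These 4 calls held in all 18 fits that left out 1 array. PLET1, DPPA5 and PPAG3 differed by 0.16 ± 0.16, 0.36 ± 0.22 and 0.14 ± 0.21 (adjusted p = 0.417, 0.179 and 0.605). After median centring, PLET1, DPPA5 and a second PAG6 probe set also passed, by 0.52, 0.72 and 0.67, so that 7 of the 10 were higher in Yorkshire. After cyclic loess PPAG3 passed as well, by 0.61, which made 8 of the 10.

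At GD50, PPAG3 was 2.60-fold lower in Yorkshire than in Meishan (-1.38 ± 0.21, adjusted p = 8.37e-05), with no overlap, and this call held in all 18 fits that left out 1 array and under the 3 scalings. The brightest GATA3 probe set was 1.75-fold higher in Yorkshire (0.81 ± 0.31, adjusted p = 0.0334), although the arrays overlapped. That call was lost without the first or the third Yorkshire GD50 array (adjusted p = 0.0965 and 0.167) and without the first or the third Meishan GD50 array (adjusted p = 0.0548 and 0.166). PLAC1 differed by -0.87 ± 0.61 and -1.37 ± 0.64 and the brightest PAG6 probe set by -0.78 ± 0.37 (adjusted p = 0.236, 0.0781 and 0.0804). Further values passed when 1 array was left out. Without the third Meishan GD26 array, which enters the common estimate of the spread, the dimmer PLAC1 and the brightest PAG6 probe set were lower in Yorkshire (adjusted p = 0.00433 and 0.00368), and that of PAG6 also without the first (adjusted p = 0.0443). The dimmer PLAC1 probe set also passed with all arrays and a floor of 50 (adjusted p = 0.00278). Without the third Yorkshire GD50 array, the second GATA3 probe set and both other PAG6 probe sets were lower in Yorkshire (adjusted p = 0.0425, 0.0289 and 0.0338). Without the third Meishan GD50 array, DPPA5 and the second GATA3 probe set were lower in Yorkshire (adjusted p = 0.0127 and 0.0233), the GATA3 one also without the first Yorkshire GD50 array (adjusted p = 0.0450). The 2 tested probe sets of GATA3 thus pointed opposite ways at GD50, with differences of 0.81 and -0.79.

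**Figure D3:**
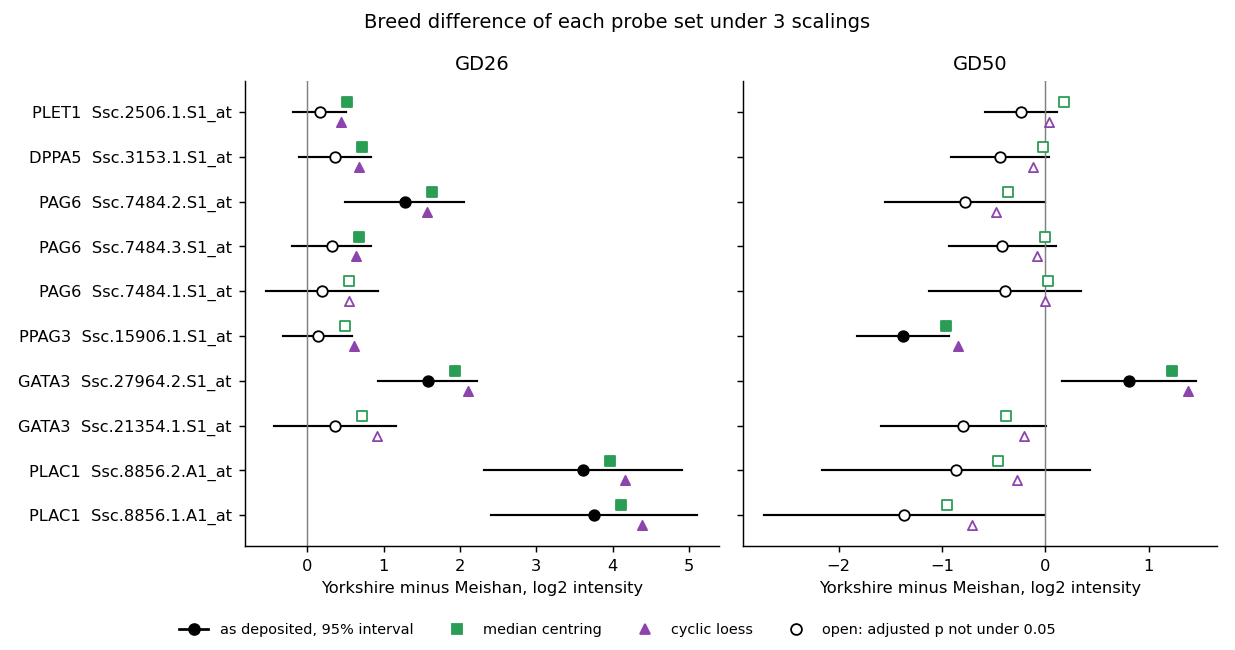
Yorkshire minus Meishan log2 intensity of the 10 tested probe sets at GD26 and GD50, as deposited with 95% confidence intervals, after median centring and after cyclic loess, filled where the adjusted p was under 0.05. At GD26, 4 probe sets are called as deposited, 7 after median centring and 8 after cyclic loess, and at GD50 PPAG3 stays lower and the brightest GATA3 probe set higher in Yorkshire under all 3.

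The 3 probe sets of PAG6 did not tell the same story, although the platform assigns all of them to 1 transcript. In Meishan, the brightest rose by GD50 as given above, the second changed by 0.04 ± 0.21 (adjusted p = 0.923), and the third was 2.03-fold lower (-1.02 ± 0.26, adjusted p = 0.0261). The third probe set measured 12.43, 12.59 and 11.66 at GD50, against 13.68, 13.21 and 12.87 at GD26, without overlap. In Yorkshire it was 3.05-fold lower (-1.61 ± 0.38, adjusted p = 0.0228), with 11.77, 11.03 and 12.73 at GD50 against 13.38, 13.41 and 13.56 at GD26. The call in Meishan was lost without the first or second GD26 array or the third GD50 array (adjusted p up to 0.0789), with the filter after the fit (adjusted p = 0.0594) and in 1 fit over both breeds (adjusted p = 0.0577), and that in Yorkshire without the second or the third GD26 array or the first GD50 array (adjusted p up to 0.0605) and with the filter after the fit (adjusted p = 0.0513). Within an array, where a shift of the whole array cancels, the value of the brightest minus that of the third was 1.36 higher at GD50 than at GD26 in Yorkshire and 2.83 higher in Meishan, with no overlap in either breed. With 3 arrays against 3, the exact two-sided permutation test gave its smallest possible p, 0.1, for both. Here, as in all 20 comparisons made within arrays, the design cannot reach 0.05. Which transcripts of the family each probe set binds was not tested.

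The same comparison within arrays was made for PLAC1 against PLET1, which takes out any shift that the 2 genes share. Relative to PLET1, PLAC1 at GD26 was 3.44 higher in Yorkshire than in Meishan on the brighter probe set and 3.59 higher on the other. Between GD26 and GD50 it rose by 4.63 and 4.83 relative to PLET1 in Meishan, with no overlap of the arrays. PLET1 lay near the top of the scale and PLAC1 was under 100 on 2 of the 3 Meishan GD26 arrays on the brighter probe set and on all 3 on the other, so the sizes are not exact. Each of these reached the smallest p of 0.1 that the exact two-sided permutation test allows at this size.

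Within a group, the 6 genes went up and down together from array to array. Over the 12 arrays of GD26 and GD50, the deviations of the 10 probe sets from their group means correlated at 0.46 to 0.96 over the 45 pairs, with a median of 0.73, and at 0.50 to 0.95 over the 15 pairs of the brightest probe sets of different genes. The points of a pair share their arrays, their pools and their scaling. The third Meishan GD26 array was the lowest of its group for 10 of 10 probe sets, by 0.82 on average, and the first was the highest for 9. In the Yorkshire GD50 group the second array was the lowest for 9 and the third the highest for 10. In the Meishan GD50 group the third array was the lowest for 8 and the second the highest for 9. The median deviation of all tested probe sets was 0.01 on the third Meishan GD26 array and 0.02 on the third Yorkshire GD50 array. It was -0.11 on the second Yorkshire GD50 array and 0.14 on the first Yorkshire GD26 array, which was the highest of its group for 8 of the 10. Correlations of pairs of other probe sets were not computed for comparison.

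**Figure D4:**
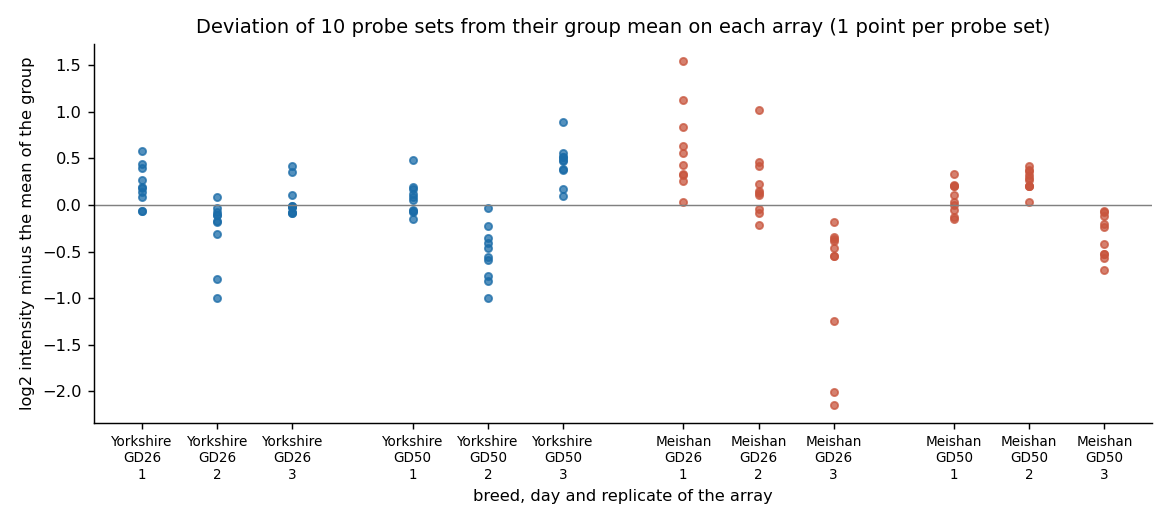
Log2 intensity of each of the 10 tested probe sets minus its group mean, on the 12 arrays of GD26 and GD50, 1 point per probe set. All 10 points of the third Meishan GD26 array lie below 0, down to -2.15, and all 10 of the third Yorkshire GD50 array lie above 0.

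Other genes of the trophoblast were taken from 2 lists, of regulators and of products, which were compiled with earlier results of these data known. Of 25 listed genes on the array that are not among the 6, 13 were past the filter. From GD15 to GD26, 5 of the 13 rose and 2 fell in Yorkshire, and 7 rose and 1 fell in Meishan, against the 20.3% and 44.9%, and 23.8% and 27.1%, of all probe sets given above. TEAD4, PPARG and PEG10 were under 100 on all GD15 arrays and passed the filter only through the later days, and they make up 3 of the rises in each breed. ENPEP, a further rise in Meishan, was under 100 on all Meishan GD15 arrays, so the counts of rises are no support for a rise of the lists. For TEAD4, PPARG and PEG10 the p-values of this step given below are likewise no support for a rise. The median change at GD26 was 0.29 over the 5 regulators and 0.01 over the 8 products in Yorkshire, where the median over all probe sets was -0.47. In Meishan it was 0.63 and 0.83, where the median over all was -0.06.

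Among the regulators, PPARG, a nuclear receptor needed for the mouse placenta, rose at least 2.40-fold in Yorkshire (adjusted p = 0.00180) and at least 3.00-fold in Meishan (adjusted p = 0.000117), where the log2 change was 3.69 and, without the third GD26 array, 4.28. TEAD4, which acts upstream of trophoblast genes in the mouse embryo, rose at least 2.76-fold in Yorkshire (adjusted p = 1.1e-05). In Meishan it rose by 0.63 ± 0.21 (adjusted p = 0.0298), a call lost without the second or the third Meishan GD15 array or the first or second Meishan GD26 array (adjusted p up to 0.109) and with the filter after the fit (adjusted p = 0.0506). GATA2, the relative of GATA3, was at 8.58, 7.88 and 7.93 in Yorkshire at GD26 against 8.12, 8.35 and 8.06 at GD15 and did not pass the test. Unlike GATA3, it was above 100 on all arrays of GD15.

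Of the 8 tested products, 2 were higher and 3 lower in Yorkshire than in Meishan at GD26, where 10.7% of all probe sets were higher and 42.5% lower. The lower ones were PLAC8, TFPI2 and ENPEP, with log2 differences of -1.93, -1.24 and -3.53. IGF2, a fetal growth factor, was among the higher ones and thus, like PLAC1, lower in Meishan at GD26. It measured 9.79, 10.12 and 11.25 at GD26 in Yorkshire against 8.40, 8.07 and 6.25 at GD26 in Meishan, a 7.02-fold higher level in Yorkshire (adjusted p = 9.03e-05), and it was 6.48-fold higher at GD50 than at GD26 in Meishan (adjusted p = 0.00370). Without the third Meishan GD26 array, the lowest of its group, these log2 differences were 2.15 in place of 2.81 and 2.03 in place of 2.70. PEG10, an imprinted gene of the placenta, rose in Yorkshire (3.16 ± 0.56, adjusted p = 0.000890, but 0.0812 with a floor of 50) and in Meishan (2.84 ± 0.46, adjusted p = 0.000707), and PHLDA2, another imprinted gene of the placenta, rose 2.04-fold and 1.70-fold (adjusted p = 0.00346 and 0.0165). The change of PEG10 in Yorkshire was 2.51 without the first GD26 array and 3.83 without the second, and in Meishan it was 2.24 without the first. FOLR1, a folate receptor that the uterine epithelium also makes, was 1.42-fold lower at GD26 in Yorkshire and 3.84-fold lower in Meishan (adjusted p = 0.0336 and 3.7e-05). The Yorkshire change of FOLR1, -0.51, was close to the -0.47 of all probe sets, and its call was lost under all 3 scalings (adjusted p up to 0.663) and without the second or the third GD15 array or the first or the third GD26 array (adjusted p up to 0.134), and the Meishan call of PHLDA2 without the second GD15 or the second GD26 array (adjusted p up to 0.0585). ENPEP, an aminopeptidase, went opposite ways, at least 1.56-fold lower in Yorkshire (adjusted p = 0.00275) and at least 4.49-fold higher in Meishan (adjusted p = 3.69e-05).

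A few conceptus genes that were too seldom above 100 to enter the tests were also looked at, chosen after their values were seen. HBE1, the embryonic globin of red cells, measured 13.81, 14.06 and 13.94 at GD26 in Yorkshire and 12.64, 10.96 and 6.64 in Meishan. On all arrays of GD15 and GD50 it was between 2.24 and 3.07. The red cells of the early conceptus carry this globin, and adult red cells do not. Over the 5 genes of embryonic red cells on the array, of which none was above 100 throughout and 2 were under 100 on all arrays, the mean level at GD26 was 6.71 to 7.16 in Yorkshire and 4.28 to 5.85 in Meishan, against 3.38 to 3.67 and 3.42 to 3.65 at GD15. Within Meishan at GD26, HBE1 was lowest on the third array, where the 6 genes were lowest too. In Yorkshire at GD26 it was highest on the second array, which was the lowest of its group for 8 of the 10 tested probe sets. At GD50 HBE1 was back at its GD15 level while PLET1, PAG6 and PLAC1 were high. The part of conceptus cells other than trophoblast in the values of the 6 genes was not tested.

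CYP19A1 and HSD17B1, an aromatase and a hydroxysteroid dehydrogenase of estrogen synthesis, ran the other way on the third Meishan array of GD26. CYP19A1 measured 6.57, 6.68 and 7.96 on the 3 Meishan GD26 arrays, and HSD17B1 6.99, 6.61 and 8.26, highest on the third in both cases. In Yorkshire at GD26 they measured 6.18, 3.22 and 3.79, and 5.78, 2.99 and 5.11. IFNG, an interferon that the pig trophoblast secretes around attachment, measured 4.19, 4.07 and 7.34 on the Meishan GD26 arrays and 2.22 on each Yorkshire GD26 array. That array was thus not low for all genes known from the trophoblast. HAND1, a regulator of trophoblast and mesoderm in the mouse, measured 7.81, 7.90 and 6.94 at GD26 in Yorkshire and 3.33, 5.50 and 2.92 in Meishan.

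**Figure D5:**
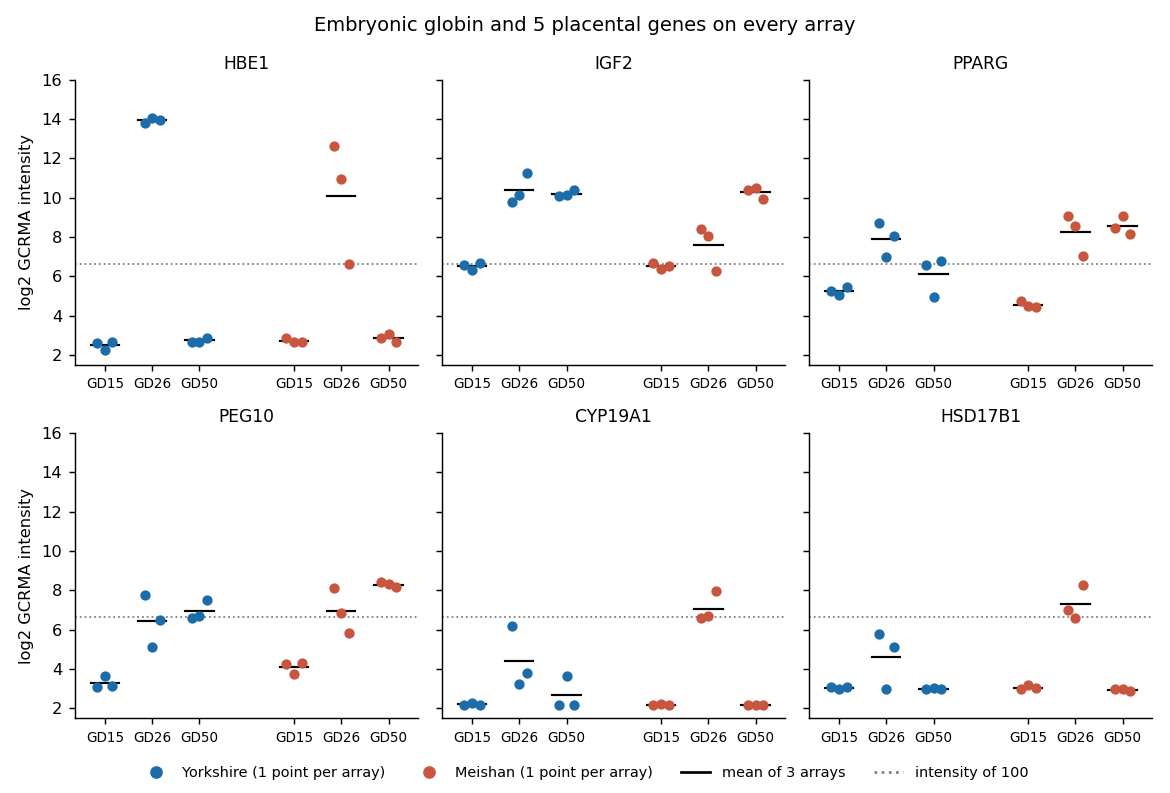
Log2 GCRMA intensity of the embryonic globin HBE1 and of IGF2, PPARG, PEG10, CYP19A1 and HSD17B1 on every array, by breed and gestational day, with the mean of 3 arrays as a bar and an intensity of 100 as a dotted line. HBE1 is above 100 only at GD26, on all 3 Yorkshire arrays and on the first and second Meishan ones, while the third, at 6.64, lies on the line.

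Genes of the uterine epithelium were followed over the same interval, in which 20.3% of all probe sets rose and 44.9% fell in Yorkshire, and 23.8% rose and 27.1% fell in Meishan. Of 12 tested genes of its list, 3 rose and 7 fell from GD15 to GD26 in Yorkshire and 4 rose and 5 fell in Meishan, with medians of -0.79 and -0.30 against the -0.47 and -0.06 of all probe sets. SAL1, the uterine lipocalin, fell at least 17.8-fold in Yorkshire and at least 15.4-fold in Meishan (adjusted p = 8.15e-07 and 9.67e-07), and KRT19, a keratin that trophoblast also makes, rose 4.99-fold and 3.59-fold (adjusted p = 8.42e-06 and 0.000295). Of the 6 tested stromal genes, 1 rose and 1 fell in Yorkshire and 1 rose in Meishan, to be read against the same shares. COL1A2, the one that rose in Yorkshire, was under 100 on all GD15 arrays there.

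Aspartic proteinases are the family from which pregnancy-associated glycoproteins derive. Of 3 tested relatives, 2 rose at GD26 in Yorkshire and 3 in Meishan, where 20.3% and 23.8% of all probe sets rose, with median changes of 1.53 and 1.77, beside the -0.47 and -0.06 of all probe sets. BACE2, a membrane-bound proteinase, rose at least 18.9-fold in Yorkshire and 9.69-fold in Meishan (adjusted p = 1.05e-07 and 4.76e-08), and CTSD, the lysosomal cathepsin D, 2.89-fold and 3.30-fold (adjusted p = 7.5e-05 and 2.25e-05). PGA5, a pepsinogen of the stomach, appeared later than the 6 genes. It measured 8.23, 7.34 and 8.16 at GD50 against 2.44, 2.68 and 3.60 at GD26 in Yorkshire, and 9.38, 9.79 and 9.60 at GD50 against 2.79, 5.46 and 3.62 at GD26 in Meishan. It rose at least 2.41-fold and at least 7.71-fold between these days (adjusted p = 2.73e-05 and 0.000135). PGA5 was above 100 only on the GD50 arrays and passed the filter through them, so these p-values are no support for the rise. The Meishan log2 change was 5.64 and, without the second Meishan GD26 array, 6.39. At GD50 PGA5 was 3.20-fold lower in Yorkshire than in Meishan (adjusted p = 0.00728), a call lost under cyclic loess (adjusted p = 0.305). Its change in Meishan at GD26 passed the test although all its arrays of GD15 and GD26 were under 100, and did not with the filter after the fit (adjusted p = 0.0537) or with a floor of 50 (adjusted p = 1). That change was 1.77, and 1.01 without the second Meishan GD26 array. It is also the Meishan median of the 3 relatives given above, and BACE2 was under 100 on all Yorkshire GD15 arrays. The counts and medians of the 3 are therefore no support for a rise of the list. Whether the signal of the PGA5 probe set comes from PGA5 or from a relative that binds its probes was not tested.

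In the gene order of RefSeq (assembly Sscrofa11.1, used here for names and neighbours only), PGA5 lies 2 protein-coding genes before PAG6, and PPAG3 lies 4 after it. Most genes around them have only a LOC identifier, and the 1 of these that the platform annotation names, LOC100523945, lies 2 genes after PPAG3. It was also the gene most like PLET1, DPPA5, PAG6 and PPAG3 of 5236 probe sets with 1 symbol, with Pearson correlations over the 18 arrays of 0.996, 0.997, 0.994 and 0.997. It measured 13.25, 12.88 and 13.03 at GD26 and 11.88, 11.06 and 12.29 at GD50 in Yorkshire, and 13.06, 12.52 and 11.65 at GD26 and 12.96, 12.96 and 12.65 at GD50 in Meishan. It thus was 2.48-fold lower at GD50 than at GD26 in Yorkshire (adjusted p = 0.0164, but 0.0657 with no filter) and changed by 0.45 ± 0.29 in Meishan (adjusted p = 0.337). At GD50 it was 2.16-fold lower in Yorkshire than in Meishan (adjusted p = 0.00628), a call lost under median centring and cyclic loess (adjusted p = 0.0626 and 0.0727). Over the 12 later arrays alone, a view added after the data were seen, its correlations with the 4 genes were 0.845, 0.732, 0.584 and 0.782, lower than over all 18, which also hold the step from GD15.

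For GATA3 the gene of highest likeness was FNTA, a subunit of protein farnesyltransferase (r = 0.987), followed by TM4SF1 and ATP2A2 (0.983 and 0.982). For PLAC1 the first and second were probe sets of BPI, a protein that binds bacterial endotoxin (0.992 and 0.988), and the third was TM4SF5 (0.981). The likeness of BPI to PLAC1 over the 12 later arrays was still 0.978. These correlations are given as descriptions over arrays that share pools, days and scaling.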

How the data were processed

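RNA of endometrium was measured on 18 arrays, 3 pools of attachment sites for each of 6 groups of breed and day, grouped by their labels. The authors read the intensity files into R with the affy and GCRMA packages, and the deposited values are log2 intensities per probe set, from 2.18 to 16.05, without missing values. The submitters' processing notes also name RMA, with no versions. The background correction was not varied here, and replicate arrays number 3 per group, which limits the precision.

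limma 3.58.1 in R 4.3.3 (lmFit, eBayes) was fitted after the 124 control probe sets and those not above 100 on at least 6 arrays had been left out, which kept 9320. Changes between days were fitted per breed, and breed differences in 1 fit over the 6 groups. A dim group with all arrays at or under 100 was set to 100 for a fold, written as at least. Symbols came from the platform annotation, updated by gene identifier, which gives 1 symbol for 10099 probe sets, several for 198 and none for 13826. The brightest probe set represents a gene. The plan was to name all probe sets of the 6 genes and the 3 probe sets most correlated with each gene. Of each list it set up to 6 genes with the largest change past the test per direction and breed at GD26, and up to 4 in the other comparisons. Not all are given above. Left out were changes from GD26 to GD50 in Yorkshire of PLAC8 (-2.78, limma adjusted p = 0.000909) and ETS2 (1.04, 0.00747). The Yorkshire minus Meishan differences at GD50 of PLAC8 (-5.93, 1.59e-08) and PPARG (-2.46, 0.00117) were also among those left out. The members and lists were chosen with earlier results of these data known. The alternatives were the filter after the fit, none, or another minimum, Bonferroni adjustment, steps fitted on the 2 breeds jointly, a replicate block, 3 scalings, a trend in eBayes, a floor of 50, averaging probe sets by gene, and leaving out each array. The fits were tested on simulated data. Plots were made in Python 3.11.15 with matplotlib 3.10.9. Likeness over the 12 later arrays was added after the data were seen, and HBE1, CYP19A1, HSD17B1, IFNG and HAND1 were named after their values were seen. No 2 arrays shared more than 0.987% equal values, and arrays of a group correlated at 0.948 to 0.991.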

Additional observations from a re-analysis of the deposited data

Results flagged for a closer look

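The change between GD26 and GD50 differed between the breeds, when the difference between the 2 changes was itself tested with limma (Yorkshire minus Meishan), for 4 probe sets of 3 of the genes. The log2 difference was -5.12 and -4.47 for the 2 probe sets of PLAC1 (adjusted p = 0.00439 and 0.00813), -2.05 for the brightest probe set of PAG6 (adjusted p = 0.0332) and -1.51 for PPAG3 (adjusted p = 0.00917). In each case the Meishan level was higher at GD50 than at GD26 and all 3 Meishan GD50 arrays lay above all 3 Meishan GD26 arrays. For PPAG3 the Yorkshire level was also lower at GD50 than at GD26, without overlap, though this did not pass (-0.76 ± 0.24, adjusted p = 0.0662).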

How the results depend on the processing

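No value of the 6 genes that was past the threshold changed direction under any alternative. The number of probe sets called was 4 for Yorkshire GD50 versus GD26, and 2 with the filter after the fit, 1 with no filter and 0 with Bonferroni adjustment. It was 5 for Meishan GD50 versus GD26, and 3, 3 and 0 under the same settings. With Bonferroni it was also 0 for Yorkshire versus Meishan at GD26 (4), at GD50 (2) and for the breed difference in the change (4). At GD26 it became 7 with median centring and 8 with cyclic loess. The 7 trophoblast list genes called in Yorkshire at GD26 became 4 with an intensity above 200 and 2 with Bonferroni, and the 8 in Meishan became 5 and 2. An intensity above 200 leaves 9 of the 13 list genes, no filter adds probe sets to the adjustment, and the cause of the other shifts was not tested. The change of GATA2, Yorkshire GD26 versus GD15, which had not passed, turned positive with cyclic loess (0.47, adjusted p = 0.0421). When 1 array was left out, the counts ran from 2 to 6 for Yorkshire GD50 versus GD26, from 3 to 5 in Meishan, and stayed at 0 at GD15 and at 4 at GD26 between the breeds. They ran from 1 to 4 at GD50, from 3 to 4 for the breed difference, and from 6 to 7 and 5 to 8 for the trophoblast lists in Yorkshire and Meishan. The replicate numbers were not used to pair the arrays in the reported fits, since the gilts differed between groups. Of the 18 same-numbered pairs within a breed, 7 correlated over 0.1 (-0.14 to 0.33). Pairs with different numbers were not compared, so these correlations cannot decide on a pairing. With the replicate block the counts over the 6 genes were the same in every comparison, and the Meishan list count was 9 in place of 8. The 3 arrays per group and the dim GD15 signal limit what could be seen.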
